A study of Homo sapiens with 12 samples.

Results

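The N-myc downstream-regulated gene (NDRG) family is described here through the steady-state mRNA of its 4 members, NDRG1, NDRG2, NDRG3 and NDRG4, which were chosen by gene symbol from the 25369 genes of the deposited tables. All 4 were found in both the count table and the RPKM table. RPKM is a read count scaled to gene length and to library size, and it is the scale used below wherever the level of a gene is given or members are compared with each other.

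NDRG proteins share an alpha/beta hydrolase fold that lacks the catalytic residues of true hydrolases. NDRG1 is a widely used marker of hypoxia, iron depletion and other stresses, and NDRG2 is known for low expression in many tumours. NDRG3 protein is marked for degradation by prolyl hydroxylase in oxygenated cells and is stabilised by lactate when oxygen is low, and NDRG4 is best known from brain and heart and from methylation of its promoter in colorectal cancer.

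The cells were RKO (colon carcinoma, grown in DMEM), A549 (lung carcinoma, grown in DMEM) and H460 (large cell carcinoma of the lung, grown in RPMI), all with fetal bovine serum. Each line was kept in normoxia or exposed to hypoxia at 1% O2 for 24 h, and poly(A)+ RNA was sequenced strand by strand from 2 replicates of each of the 6 groups, 12 libraries in all. Each cell type is 1 established line, and the medium of H460 cannot be told apart from the line. The study's reporting summary describes the replicates as biological duplicates made independently.

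Total counts per library ranged from 27350424 to 41757584, and replicates of every group differed by more than counting error (chi-square per degree of freedom 10.1 to 75.9). Of 6 widely used hypoxia-induced genes (CA9, VEGFA, SLC2A1, PDK1, ADM, ANKRD37), RKO and H460 each had 6 calls to higher values and A549 had 4. Of 6 colon markers only CDX2 exceeded a mean of 1 RPKM in RKO, and of 5 lung markers only NAPSA did so in A549. H460 had no lung marker above that mean over its 4 libraries, although NKX2-1 reached 1.15 and 1.13 RPKM in hypoxia, so the labelled tissue is only partly visible in marker genes. Of the epithelial markers EPCAM, KRT8 and KRT18, all 3 exceeded a mean of 1 RPKM in RKO and A549 and 2 did so in H460, where EPCAM was at 0.0503 to 0.305 RPKM while KRT8 had means of 342 RPKM in normoxia and 195 in hypoxia and KRT18 had 344 and 240 RPKM. The summed epithelial level was 69.5 to 131 RPKM over the RKO libraries, 1205 to 1681 over those of A549 and 430 to 695 over those of H460. PTPRC and PECAM1, which mark blood and endothelial cells, had at most 3 reads in any library, and the fibroblast collagen COL1A1 exceeded 1 RPKM in A549 and H460. A level in bulk RNA cannot tell a change in the number of expressing cells from a change per cell.

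NDRG1 was the member with the large hypoxia response in all 3 lines. It lies on the minus strand of chromosome 8 (chr8:134249414-134309547, GRCh37) and encodes the stress-responsive founder of the family. In RKO its level was 32.3 and 9.13 RPKM in the 2 normoxia libraries and 456 and 401 RPKM in the 2 hypoxia libraries. In A549 it was 11.8 and 15.8 RPKM in normoxia and 194 and 487 RPKM in hypoxia. In H460 it was 5.93 and 5.17 RPKM in normoxia and 298 and 287 RPKM in hypoxia. Every hypoxia library therefore stood above every normoxia library, and the lowest hypoxia level exceeded the highest normoxia level of the same line by 12.4-fold in RKO, 12.3-fold in A549 and 48.4-fold in H460.

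**Figure D1:**
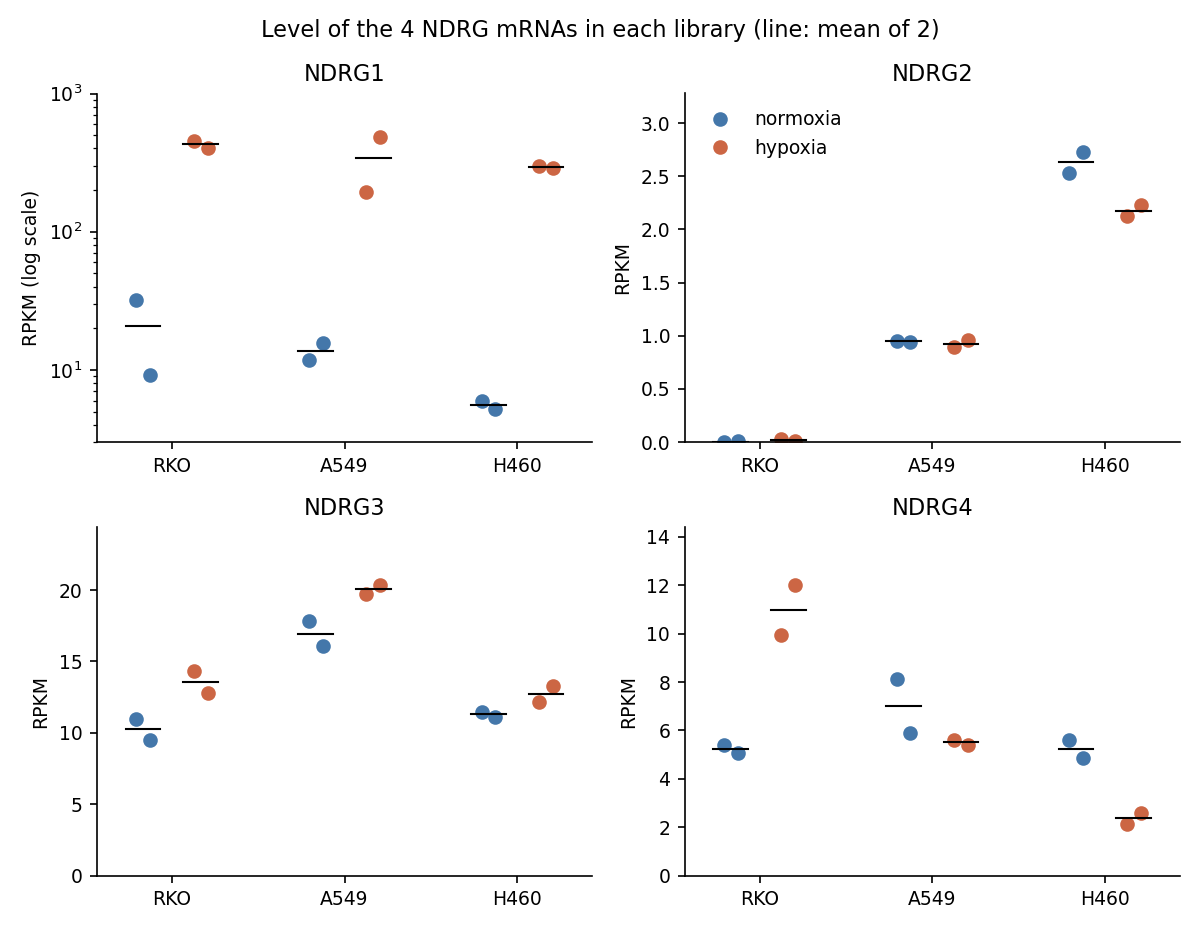
Level of each NDRG mRNA (y axis, RPKM) in the 2 normoxia (blue) and 2 hypoxia (orange) libraries of RKO, A549 and H460, with a bar at the mean of 2. The NDRG1 axis is logarithmic and the others are linear from 0; NDRG1 rose from at most 32.3 to at least 194 RPKM, NDRG4 moved up in RKO and down in H460, and NDRG2 stayed near 0 in RKO.

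Fitted line by line with edgeR's quasi-likelihood test, NDRG1 rose by a log2 fold change of 4.28 ± 0.48 (SE) in RKO, which is 19.4-fold with a 95% interval of 9.33 to 40.3 (adjusted p = 0.000188). In A549 it rose by 4.73 ± 0.43, or 26.4-fold with an interval of 13.6 to 51.4 (adjusted p = 0.00441). In H460 it rose by 67.4-fold, with the narrowest interval, 55.4 to 82.0 (adjusted p = 1.11e-10). That interval does not cover the choice of scaling. On the log2 scale it ran from 5.79 to 6.36, while the H460 value was 5.72 by library size alone. Limma fitted to log2 of RPKM gave 5.70 with a pseudocount of 0.1 and 5.49 with 1. Calls required a fold change over 1.5 together with an adjusted p under 0.1. By that rule the share of all tested genes called higher was 18.8% for RKO, 2.22% for A549 and 24.6% for H460. Ordered by fold change, NDRG1 took place 35 among the 12817 genes tested for RKO, place 4 among 14251 for A549 and place 14 among 14080 for H460.

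The width of the NDRG1 intervals followed the replicates. The normoxia libraries of RKO differed 3.54-fold in NDRG1 level and the hypoxia libraries of A549 differed 2.51-fold, whereas the H460 replicates differed by 1.15-fold in normoxia and 1.04-fold in hypoxia. Without replicate 1 of RKO normoxia the log2 fold change in RKO was 5.50, and without replicate 2 it was 3.62. Without replicate 2 of A549 hypoxia the log2 fold change in A549 was 3.89, and without replicate 1 it was 5.25. NDRG1 remained called in each of these fits.

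Other hypoxia-induced genes differed between the same libraries. Between replicate 2 and replicate 1 of A549 hypoxia, ANKRD37 was 2.77-fold higher, VEGFA 2.22-fold, ADM 2.02-fold and SLC2A1 1.42-fold, while CA9 was 1.12-fold higher, and COL1A1 had 69.7 against 21.9 RPKM. Between replicate 1 and replicate 2 of RKO normoxia, CA9 was 1.94-fold higher, PDK1 1.47-fold and ANKRD37 1.44-fold, while SLC2A1 (0.955-fold) and ADM (0.925-fold) were not higher. The part of such differences in the NDRG1 spread was not tested.

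The size of the NDRG1 response was compared between lines in a joint fit of the 12 libraries, as a difference of log2 fold changes. NDRG1 responded less in RKO than in H460, with a difference of RKO minus H460 of -1.75 ± 0.65 on the log2 scale (adjusted p = 0.058), and 37.6% of tested genes passed adjusted p under 0.1 for this pair. The call held in 7 of 12 fits that left out 1 library. Without RKO normoxia replicate 1 the difference was -0.52 (adjusted p = 0.519), and the call was also lost without RKO hypoxia replicate 2 (-1.59, adjusted p = 0.164), H460 normoxia replicate 1 (-1.86, adjusted p = 0.111) or 2 (-1.65, adjusted p = 0.154), or H460 hypoxia replicate 1 (-1.70, adjusted p = 0.122). It was lost too under DESeq2 (-1.78, adjusted p = 0.11), library size alone (-1.35, adjusted p = 0.121) and limma with a pseudocount of 0.1 (-1.07, adjusted p = 0.257) or 1 (-0.94, adjusted p = 0.324). A549 minus H460 was -1.35 with an interval of -2.75 to 0.05 (adjusted p = 0.142), and RKO minus A549 was -0.40 with an interval of -1.78 to 0.98 (adjusted p = 0.762). These 2 pairs had no call for NDRG1, against 36% and 14.6% of all tested genes, and the A549 minus H460 difference gained a call without A549 hypoxia replicate 2 (-2.20, adjusted p = 0.0179) or either RKO normoxia replicate (both -1.34, adjusted p = 0.0492). The RKO minus A549 difference was 0.82 without RKO normoxia replicate 1 and 0.45 without A549 hypoxia replicate 2, so its sign rested on single libraries. With the replicate number as a block A549 minus H460 was -1.49 and called (adjusted p = 0.0214).

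The lines also started from different NDRG1 levels. Normoxia NDRG1 was higher in RKO than in H460 by a log2 fold change of 1.88 ± 0.48 (adjusted p = 0.00291) and higher in A549 than in H460 by 1.29 ± 0.47 (adjusted p = 0.0294), in joint fits that called 61.9% and 52.1% of tested genes in either direction. Between RKO and A549, where 60.2% of genes were called, the NDRG1 difference was 0.59 ± 0.46 (adjusted p = 0.272), and it was -0.64 without RKO normoxia replicate 1 and 1.23 without replicate 2 (adjusted p = 0.0135). The call of RKO over H460 was lost without RKO normoxia replicate 1, where the value was 0.65 (adjusted p = 0.172). That of A549 over H460 fell short of the threshold without A549 normoxia replicate 2 (1.09, adjusted p = 0.109) and without H460 normoxia replicate 2 (1.18, adjusted p = 0.139). With the replicate number as a block the call of A549 over H460 was lost (0.76, adjusted p = 0.102) and RKO over A549 was called (1.34, adjusted p = 0.00613). In hypoxia the mean levels were 429 ± 38.9 RPKM (SD, n = 2) in RKO, 341 ± 207 in A549 and 293 ± 7.89 in H460. The A549 libraries spanned the values of the other lines, and RKO lay above H460 in both libraries; these hypoxia levels were not tested against each other.

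With this response NDRG1 became one of the more abundant mRNAs of the cell. Ordered by RPKM among 25369 genes, it stood at places 2446 and 6832 in the RKO normoxia libraries and at 107 and 113 in hypoxia. In A549 it moved from 5759 and 4819 to 277 and 113. In H460 it moved from 8325 and 8984 to 176 and 179. In each hypoxia library NDRG1 was thus among the 277 most abundant genes of the table.

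NDRG4 was the only member called in opposite directions in different lines. It lies on the plus strand of chromosome 16 (chr16:58497549-58547523, GRCh37) and encodes the brain and heart member. In RKO it rose from 5.42 and 5.08 RPKM in normoxia to 9.94 and 12.01 RPKM in hypoxia. In H460 it fell from 5.61 and 4.87 RPKM to 2.15 and 2.57 RPKM. In A549 the normoxia libraries had 8.14 and 5.91 RPKM and the hypoxia libraries 5.62 and 5.40 RPKM. The conditions did not overlap in RKO or H460, and in A549 they overlapped once the libraries were scaled by TMM, edgeR's correction for composition. The share of all genes without such overlap was not counted.

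The NDRG4 log2 fold change was 0.98 ± 0.17 in RKO, or 1.97-fold higher (adjusted p = 0.00158). In H460 it was -0.80 ± 0.13, or 1.74-fold lower (adjusted p = 0.000181), with an interval of -1.09 to -0.51. That interval does not cover the choice of scaling. The H460 value was -1.15 by library size alone. Limma gave -1.12 with a pseudocount of 0.1 and -0.89 with 1, and NDRG4 stayed called in each. In A549 the log2 fold change was -0.26 with an interval of -0.76 to 0.24 (adjusted p = 0.596), and 0.0033 without normoxia replicate 1. Calls to lower values were made for 15.1% of tested genes in RKO, 0.456% in A549 and 27.3% in H460. Of the 12135 genes tested in both RKO and H460, 283 (2.33%) were called higher in RKO and lower in H460, as NDRG4 was. Both NDRG4 calls stayed when any 1 replicate was left out, with log2 fold changes of 0.90 to 1.11 in RKO and -0.95 to -0.69 in H460.

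The test of the difference itself gave RKO minus H460 as 1.82 ± 0.26 on the log2 scale (adjusted p = 0.000211) and RKO minus A549 as 1.28 ± 0.25 (adjusted p = 0.00874). Of all tested genes, 37.6% and 14.6% passed adjusted p under 0.1 for these pairs, so such differences were common. By library size alone the NDRG4 value of RKO minus H460 was 2.21. A549 minus H460 was 0.54 with an interval of -0.01 to 1.08 (adjusted p = 0.133), and it gained a call without A549 normoxia replicate 1 (0.80, adjusted p = 0.0267). NDRG4 thus responded differently in RKO than in either lung line. Between the lung lines the result depended on the setting, since the difference passed by library size alone (0.80, adjusted p = 0.0353), by limma with a pseudocount of 0.1 (0.79, adjusted p = 0.0421) or 1 (0.60, adjusted p = 0.0667) and with the replicate number as a block (0.55, adjusted p = 0.0899). In normoxia the NDRG4 log2 difference was -0.03 ± 0.18 for RKO minus H460 (adjusted p = 0.899), with an interval of -0.41 to 0.35. RKO minus A549 was -0.43 ± 0.18 (adjusted p = 0.0434) and A549 minus H460 was 0.40 ± 0.18 (adjusted p = 0.0649), both past the adjusted p but under the fold change of 1.5, and without A549 normoxia replicate 2 both were called (-0.66 and 0.63). Ordered by mean level, RKO in hypoxia (11.0 RPKM) was followed by A549 in normoxia (7.02) and hypoxia (5.51), RKO in normoxia (5.25), H460 in normoxia (5.24) and H460 in hypoxia (2.36), and only the first and the last of these groups stood apart from all others in every library.

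**Figure D2:**
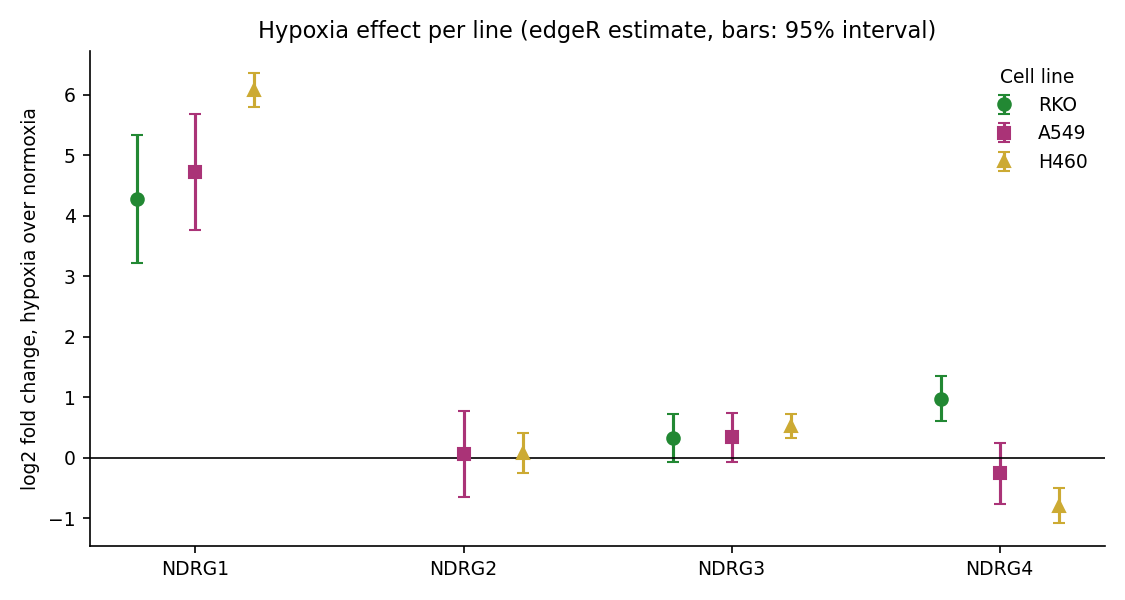
Hypoxia effect on each NDRG mRNA as log2 fold change of hypoxia over normoxia (y axis) in RKO, A549 and H460, with 95% intervals of the edgeR fit. NDRG1 lay at 4.28 or above in each line, NDRG4 was above 0 in RKO and below 0 in H460, and NDRG2 has no point in RKO because too few reads were counted.

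NDRG3 changed little at the mRNA level. It lies on the minus strand of chromosome 20 (chr20:35280169-35374541, GRCh37) and encodes the member whose protein answers to oxygen and lactate. In RKO it had 11.0 and 9.53 RPKM in normoxia and 14.3 and 12.8 RPKM in hypoxia. In A549 it had 17.8 and 16.1 RPKM in normoxia and 19.7 and 20.3 RPKM in hypoxia. In H460 it had 11.5 and 11.1 RPKM in normoxia and 12.1 and 13.2 RPKM in hypoxia. Both hypoxia libraries lay above both normoxia libraries in each line, by margins of 1.17-fold in RKO, 1.11-fold in A549 and 1.06-fold in H460. How often other genes separate 2 against 2 libraries was not counted. The order by itself is therefore not taken as a sign of a rise.

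The NDRG3 log2 fold change was 0.32 with an interval of -0.07 to 0.71 in RKO (adjusted p = 0.176) and 0.33 with an interval of -0.07 to 0.73 in A549 (adjusted p = 0.385). In H460 it was 0.52 ± 0.09 (adjusted p = 0.000312), but the fold of 1.43 stayed under the fold change of 1.5 and NDRG3 was not called. Scaled by library size instead of TMM, the H460 value was 0.17 (adjusted p = 0.137), because in H460 that scaling shifts the median of all genes by -0.35 relative to TMM. The differences between lines were small, with RKO minus A549 at 0.04 (interval -0.41 to 0.48), RKO minus H460 at -0.15 (-0.60 to 0.30) and A549 minus H460 at -0.19 (-0.64 to 0.26). In normoxia NDRG3 was lower in RKO than in A549 by a log2 fold change of -0.74 ± 0.15 (adjusted p = 0.0005), and A549 exceeded H460 by 0.57 ± 0.15 (adjusted p = 0.00445), just under the fold change of 1.5 at 1.48, and was called without A549 normoxia replicate 2 (0.65) or H460 normoxia replicate 1 (0.60). RKO minus H460 was -0.17 ± 0.15 (adjusted p = 0.323). Of all tested genes, 60.2% were called in normoxia for RKO minus A549, 52.1% for A549 minus H460 and 61.9% for RKO minus H460. A549 libraries held the highest NDRG3 levels in both conditions.

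NDRG2 separated the lines rather than the oxygen conditions. It lies on the minus strand of chromosome 14 (chr14:21484922-21539031, GRCh37). In RKO the 4 libraries held 0 and 1 reads in normoxia and 3 and 1 reads in hypoxia, at or under the 3 reads that a count of 0 allows, and NDRG2 was not tested there. In A549 it had 0.955 and 0.942 RPKM in normoxia and 0.891 and 0.959 RPKM in hypoxia. In H460 it had 2.53 and 2.73 RPKM in normoxia and 2.13 and 2.23 RPKM in hypoxia. The A549 conditions overlapped, and H460 exceeded A549 in every library.

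The NDRG2 log2 fold change was 0.05 in A549 (interval -0.66 to 0.77, adjusted p = 0.948) and 0.08 in H460 (interval -0.25 to 0.41, adjusted p = 0.662). The RPKM of NDRG2 was lower in hypoxia in H460 while the TMM-scaled fold was above 0, and by library size alone the log2 fold change was -0.27 (adjusted p = 0.143), so the data give it no direction. A549 minus H460 was -0.02 (interval -0.82 to 0.77) for the response and -1.49 ± 0.27 for the normoxia level (adjusted p = 0.000238), which is 2.81-fold lower in A549. Between these lines 52.1% of all tested genes were called in normoxia, so a difference in level was the common case. Against the single normoxia read of RKO, the A549 reads, scaled to library size, were higher by a ratio of 190 (95% counting interval 33.6 to 7523) and those of H460 by a ratio of 528 (94.2 to 20888). Against the 4 hypoxia reads of RKO these ratios were 45.8 (17.6 to 170) and 108 (41.996 to 400). Intervals of reads cover counting error only.

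Counting calls over the family, RKO had 2 of its 3 tested members called higher, A549 had 1 of 4, and H460 had 1 of 4 called higher and 1 called lower. Over all tested genes the higher calls were 18.8%, 2.22% and 24.6% in the same order, and the lower calls in H460 27.3%, so the H460 counts were at the background. The make-up of the family changed with the rise of NDRG1. NDRG1 supplied 66.3% and 38.5% of the summed NDRG RPKM in the RKO normoxia libraries and 94.9% and 94.2% in hypoxia. In A549 its share rose from 30.6% and 40.8% to 88.1% and 94.8%. In H460 it rose from 23.2% and 21.6% to 94.8% and 94.1%. NDRG3 held the largest share in each A549 and H460 normoxia library (41.5% to 46.6%) and in replicate 2 of RKO normoxia, where it had 40.1%. By reads not divided by gene length NDRG1 exceeded NDRG3 in replicate 2 of A549 normoxia (41.7% against 37.0%) and of RKO normoxia (38.5% against 34.9%). In hypoxia the NDRG3 share was 2.98% to 8.96%, the NDRG4 share 0.684% to 2.82% and the NDRG2 share at most 0.73%.

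**Figure D3:**
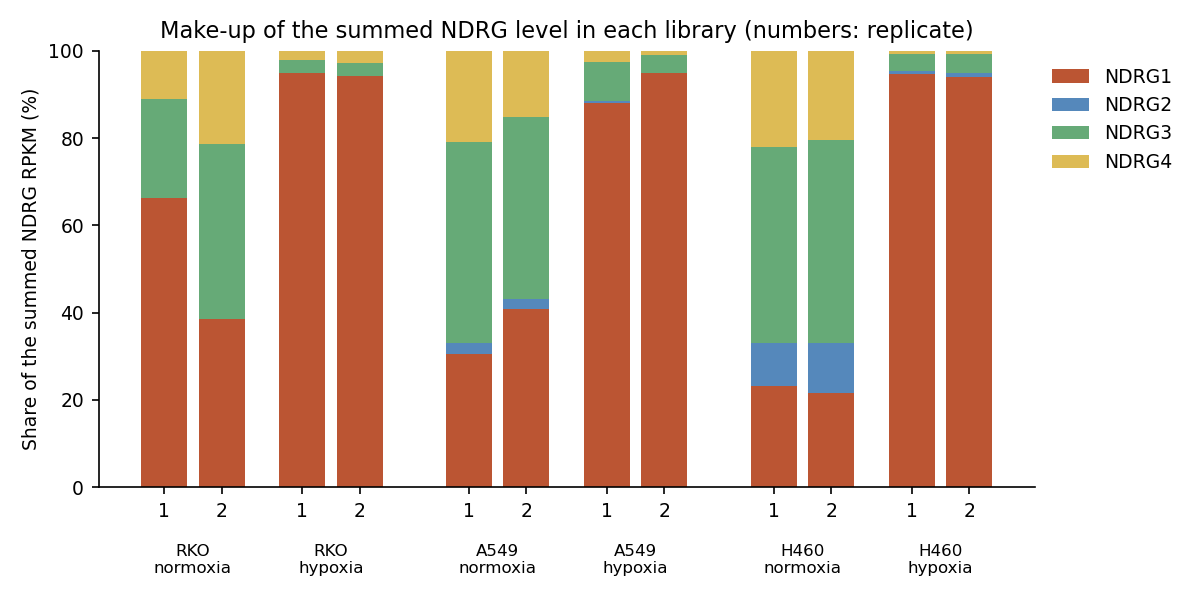
Share of each member in the summed NDRG RPKM (y axis, percent, stacked to 100) in each of the 12 libraries, grouped by line and oxygen with the replicate number under each bar. NDRG1 supplied 21.6% to 66.3% in normoxia and 88.1% to 94.9% in hypoxia.

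The summed NDRG level went from 36.2 ± 17.6 (SD, n = 2) to 453 ± 38.5 RPKM in RKO, from 38.7 ± 0.0068 to 367 ± 208 in A549 and from 24.7 ± 1.16 to 310 ± 6.73 in H460. Without NDRG1 the sum went from 15.5 ± 1.25 to 24.5 ± 0.378 RPKM in RKO, from 24.9 ± 2.80 to 26.5 ± 0.32 in A549 and from 19.2 ± 0.62 to 17.2 ± 1.15 in H460. The 12.5-fold, 9.48-fold and 12.5-fold rises of the sum in RKO, A549 and H460 thus came down to 1.58-fold, 1.06-fold and 0.899-fold once NDRG1 was set aside. No test was made on these sums.

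Over the 12 libraries the members did not move as a group. The Pearson correlation of log2 TMM-scaled counts, given as a description of libraries that share lines and conditions, was 0.55 for NDRG1 with NDRG3, 0.03 for NDRG1 with NDRG4, -0.08 for NDRG1 with NDRG2, -0.54 for NDRG2 with NDRG4, 0.50 for NDRG2 with NDRG3 and -0.04 for NDRG3 with NDRG4. Among 12424 genes with a mean of at least 100 reads, the gene most like NDRG1 was BNIP3L (r = 0.96), a mitophagy receptor, whose log2 fold changes were 2.61 in RKO, 1.82 in A549 and 4.12 in H460. SNX33, ZNF654, MPI and GPI followed, and MPI and GPI are enzymes of mannose and glucose phosphate isomerisation. NDRG2 was most like DOCK3, SERPINE2, NUDT11, PAPSS2 and CKB (r = 0.997 to 0.999). With at most 3 NDRG2 reads in any RKO library, its correlations, also those with other members, carry that near absence in RKO. DOCK3 and NUDT11 were likewise too low to be tested in RKO. NDRG3 was most like HIST1H2BD (r = 0.98), TMEM256, MYADM, CDK2AP2 and STAT5B. NDRG4 was most like GATS (r = 0.95), which had log2 fold changes of 1.44 in RKO, -0.30 in A549 and -1.51 in H460, followed by ZDHHC12, PPM1D, ELMO2 and SNAI3-AS1.

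Promoter sequence was read for the members with entries in RefSeq's table of transcript starts (GRCh38.p14), which held 5 starts of NDRG2 and 4 of NDRG4, and no entry for NDRG1 or NDRG3. The 250 bases before each start were each found at a single place on the same chromosome of GRCh37. They were searched on both strands for ACGTG and GCGTG, the 2 forms of the core of the hypoxia response element. ACGTG was in none of the 9 windows, against 18.5% of the 35116 windows in the table, and GCGTG was in 3 of the 5 NDRG2 windows, which partly overlap, and in 1 of the 4 NDRG4 windows, against 32.2% of the table. The stretches below lie just outside the outermost start of each gene and hold no annotated exon. They are shown because NDRG4 is the member whose direction differed between lines and NDRG2 the member almost without reads in RKO. The other NDRG2 starts lie 44562 to 45811 bases inside the gene. The NDRG2 stretch below also lies within the interval of ARHGEF40, a gene on the opposite strand. Which start gave the NDRG2 reads was not tested. Capitals mark CACGC, the reverse complement of GCGTG, and no match was taken as a binding site.
NDRG4 (chr16:58497369-58497534, GRCh37, plus strand): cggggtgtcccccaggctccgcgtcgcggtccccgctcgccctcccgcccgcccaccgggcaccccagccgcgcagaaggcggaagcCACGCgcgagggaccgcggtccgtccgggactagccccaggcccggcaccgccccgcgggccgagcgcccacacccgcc
NDRG2 (chr14:21539032-21539281, GRCh37, minus strand): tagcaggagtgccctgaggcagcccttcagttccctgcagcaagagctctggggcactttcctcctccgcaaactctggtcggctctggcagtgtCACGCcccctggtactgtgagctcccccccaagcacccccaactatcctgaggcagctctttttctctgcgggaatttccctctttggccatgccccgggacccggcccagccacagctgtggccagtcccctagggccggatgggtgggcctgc
Over its whole window of 250 bases the NDRG4 promoter was 82.8% G and C with 4 GCGTG matches, 1 of them in the stretch above and the others nearer the start, and the NDRG2 window was 64.4% G and C with 1 match.

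Genes within 100 kb of the members were read in the same fits, as an account of the loci. NDRG1 has WISP1 as its single neighbour in the table, a matricellular signalling gene on the opposite strand whose end lies 5.48 kb from NDRG1. WISP1 had 4 and 18 reads in A549 normoxia and 51 and 104 in hypoxia, a log2 fold change of 2.95 ± 0.67 (adjusted p = 0.0803). In H460 it had 68 and 85 reads in normoxia and 9 and 15 in hypoxia, a log2 fold change of -2.43 ± 0.31 (adjusted p = 2.48e-05). WISP1 thus moved with NDRG1 in A549 and against it in H460, and in RKO it had a single read in 4 libraries.

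Around NDRG4, SETD6, a lysine methyltransferase that begins 1.86 kb beyond the end of NDRG4 on the same strand, fell in RKO (-1.10 ± 0.23, adjusted p = 0.00404) and in H460 (-1.40 ± 0.10, adjusted p = 2.09e-07). In RKO it had 1581 and 2227 reads in normoxia and 763 and 1084 in hypoxia, so NDRG4 and SETD6 moved apart there and together in H460. GINS3, a subunit of the replication helicase, fell in the same lines (-1.38 ± 0.21 and -2.22 ± 0.13). The entry of the small nucleolar RNA SNORA76A rose in H460 (2.03 ± 0.33). It had 10 and 16 reads in normoxia and 41 and 50 in hypoxia. Its interval lies inside that of CNOT1 on the same strand, and whether its reads come from CNOT1 transcripts was not tested. CNOT1, a subunit of the deadenylase complex, was called in no line, with log2 fold changes of 0.03, -0.20 and 0.05. The table has 7 entries within the window of NDRG4, 2 of which are copies of MIR6859. Their listed interval (17369 to 102513794) is far longer than a microRNA gene, so their overlap with NDRG4 is not taken as real.

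Around NDRG3, all 4 tested neighbours were called lower in H460, where NDRG3 was not and 27.3% of all tested genes were. Their log2 fold changes were -1.29 ± 0.19 for the homeobox repressor TGIF2, -1.06 ± 0.12 for C20orf24, -0.97 ± 0.09 for the kinetochore gene DSN1 and -0.67 ± 0.10 for SOGA1. In RKO SOGA1 rose by 1.65 ± 0.27 (adjusted p = 0.00106) and the other tested neighbours were not called. Around NDRG2, ARHGEF40, which overlaps the NDRG2 interval on the opposite strand, had log2 fold changes of 1.05 ± 0.17 for RKO (adjusted p = 0.00106) and 0.60 ± 0.09 for H460 (adjusted p = 5.71e-05), both called, while that for A549 was 0.62 ± 0.23 (adjusted p = 0.229). Of 11 tested neighbours of NDRG2, NDRG3 and NDRG4 in A549, edgeR and DESeq2 each called 0, and 1 had an unadjusted p under 0.05. Of all tested genes in A549, edgeR called 2.22% higher and 0.456% lower, so 0 calls were near the background.

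**Figure D4:**
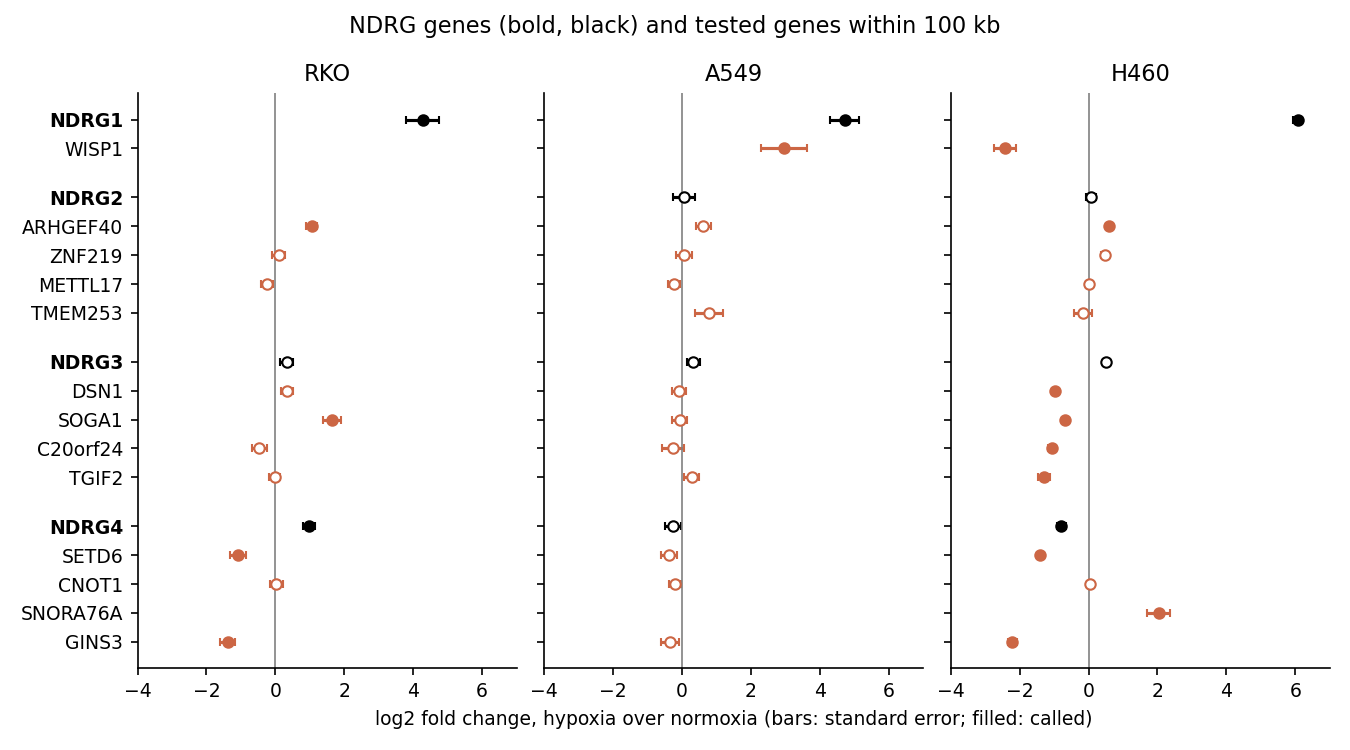
Log2 fold change of hypoxia over normoxia (x axis, bars are standard errors) for the members (black) and the tested genes within 100 kb of each (orange) in RKO, A549 and H460, with filled points for called genes. WISP1 was called in opposite directions in A549 (2.95) and H460 (-2.43), and SETD6 and GINS3 fell in RKO and H460 beside NDRG4.

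The regulators and partners known for the family were then counted. Of 13 transcription factors and kinases tied to NDRG genes or proteins, 11 were tested in each line, and 3 were called higher and 3 lower in RKO, 1 lower in A549 and 6 higher in H460. The shares over all tested genes were 18.8% higher and 15.1% lower for RKO, 0.456% lower for A549 and 24.6% higher for H460. Their median log2 fold change was 0.28 for RKO, -0.12 for A549 and 0.59 for H460, beside -0.04 to 0.01 over all tested genes. HIF1A, the oxygen-regulated subunit of the hypoxia-inducible factor, fell in RKO (-1.75 ± 0.16) and A549 (-1.16 ± 0.23), and EPAS1, its paralogue, rose in RKO (1.29 ± 0.25) and H460 (1.42 ± 0.09). ARNT, the partner of both, rose in H460 (1.69 ± 0.09). MYC, of the factor family after which the NDRG genes are named, fell in RKO (-0.87 ± 0.16), as did EGR1 (-1.57 ± 0.23), and MYCN had at most 2 reads in any library. SGK1, the kinase that phosphorylates NDRG1 and NDRG2, rose in H460 (0.77 ± 0.13), and its paralogue SGK2 rose in RKO (2.05 ± 0.42) and H460 (0.92 ± 0.38), in both from under 1 RPKM.

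Of 9 genes of NDRG3 protein turnover and lactate signalling, 3 were called higher and 2 lower in RKO, 2 higher in A549 and 4 higher in H460, with medians of -0.03, 0.12 and 0.36. Beside the background of 18.8% higher and 15.1% lower for RKO, 2.22% higher for A549 and 24.6% higher for H460, the lower calls of RKO were near the share of all genes. LDHA, which makes lactate, rose in RKO (0.63 ± 0.19), A549 (1.38 ± 0.19) and H460 (1.18 ± 0.10), and the lactate exporter SLC16A3 rose in the same lines (0.68 ± 0.17, 1.28 ± 0.21 and 1.29 ± 0.10). EGLN1, the prolyl hydroxylase, rose in RKO (1.15 ± 0.19) and H460 (1.55 ± 0.09), LDHB (-0.79 ± 0.17) and the transporter SLC16A1 (-0.61 ± 0.18) fell in RKO, and the kinase MAPK3 rose in H460 (1.03 ± 0.11). VHL, the ligase subunit that recognises hydroxylated proteins, had log2 fold changes of -0.03, 0.06 and 0.00 with standard errors of 0.15, 0.17 and 0.09.

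Of 9 reported partners or downstream proteins of NDRG members, 2 of 7 tested were called higher in RKO and 4 of 8 in H460, with medians of 0.12 and 0.40, where all tested genes gave 18.8% and 24.6%, so the RKO count was near the background. In RKO these were the metastasis suppressor CD82 (1.87 ± 0.28) and the receptor MET (0.80 ± 0.15). In H460 they included EGFR (1.16 ± 0.09), BVES (1.11 ± 0.16), a membrane protein that binds NDRG4, and CTNNB1 (0.60 ± 0.09). In A549 edgeR called 0 of 9, with a median of 0.43, while 3 had an unadjusted p under 0.05 and DESeq2 called 1. Of all tested genes in A549, edgeR called 2.22% higher and 0.456% lower, so 0 calls were near the background.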

How the data were processed

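Strand-specific poly(A)+ libraries of RKO, A549 and H460 in normoxia or hypoxia were single-end sequenced. Per the labels, the authors aligned reads with TopHat2 2.0.13 and Bowtie2 2.2.3.0 to GRCh37/hg19, handled alignments with SAMtools 1.3.1 and Picard 1.129, and counted reads per gene with HTSeq 0.6.1. The deposited counts are raw reads per gene, and the RPKM values deposited by the authors are these counts scaled to gene length and to the summed counts of the library, as checked on the files. 0 sample columns were left unused.

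Counts were fitted with edgeR 4.0.16 in R 4.3.3 (TMM scaling, quasi-likelihood F test, Benjamini-Hochberg adjustment over all tested genes). Genes over 0.5 CPM in at least 2 libraries were tested. Each line was fitted on its 4 libraries, and differences between lines came from a joint fit of all 12. A call needed an adjusted p under 0.1 and a fold change over 1.5, and for differences of the response the adjusted p alone. Floors were 3 reads, and counting intervals were at 95%. The scripts were tested on simulated data. Alternatives were DESeq2 1.42.0, RLE factors, library size alone, other filters and thresholds, a replicate block, leaving out each replicate, shares by reads not divided by length, and limma 3.58.1 fitted to log2 of RPKM plus a pseudocount (0.1 or 1).

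Named genes were the members, 3 lists of regulators, turnover genes and partners, genes within 100 kb, and the 5 genes most correlated with each member (prior count of 2). The values of some list genes are not reported here. Members and lists were chosen with earlier results of these data known. Bases were credited to RefSeq and placed by matching to GRCh37, with exons from GENCODE. NDRG2 is overlapped on its own strand by MIR6717 and RNASE13 and on the other by 4 genes.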

Additional observations from a re-analysis of the deposited data

Results flagged for a closer look

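The response of NDRG4 to hypoxia differed between lines by the test of the difference: RKO minus H460 was 1.82 ± 0.26 on the log2 scale (adjusted p = 0.000211), with both RKO hypoxia libraries above and both H460 hypoxia libraries below their normoxia libraries. RKO minus A549 was 1.28 ± 0.25 (adjusted p = 0.00874). Of all tested genes, 37.6% passed adjusted p under 0.1 for RKO minus H460 and 14.6% for RKO minus A549.

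The response of NDRG1 differed between RKO and H460 by -1.75 ± 0.65 (adjusted p = 0.058), although it rose in both lines. Without RKO normoxia replicate 1, whose NDRG1 level was 3.54-fold that of replicate 2, the difference was -0.52 (adjusted p = 0.519). The threshold was also missed under DESeq2 (adjusted p = 0.11), library size alone (0.121) and limma with a pseudocount of 0.1 (0.257) or 1 (0.324).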

How the results depend on the processing

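NDRG1 was called higher in RKO, A549 and H460 under all 11 settings beside leaving out replicates and in each fit without 1 replicate. Over the 11 settings its log2 fold change ranged from 4.28 to 4.63 for RKO, 4.39 to 4.74 for A549 and 5.49 to 6.11 for H460. Without 1 replicate it ranged from 3.62 to 5.50 for RKO, 3.89 to 5.25 for A549 and 5.92 to 6.16 for H460. With TMM scaling, a fold threshold of 2 ended the calls of NDRG4 in RKO (0.98) and H460 (-0.80). It also ended that of the normoxia difference of NDRG3 for RKO minus A549 (-0.74). By library size alone the NDRG4 values were 1.06 in RKO and -1.15 in H460. Log2 values below are differences of response unless normoxia is named, and the causes of these shifts were not tested.

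By library size alone, values without a call changed sign for NDRG2 in A549 (-0.037) and H460 (-0.27), for NDRG3 in RKO minus H460 (0.24) and A549 minus H460 (0.073), for NDRG2 in A549 minus H460 (0.24) and for the NDRG4 normoxia difference of RKO minus H460 (0.0014). Limma with a pseudocount of 0.1 gave -0.034, -0.26, 0.24, 0.076, 0.23 and 0.0039 for these, and with 1 it gave -0.018, -0.19, 0.22, 0.077, 0.18 and 0.0030. For NDRG1 in RKO minus A549 limma gave 0.15 with either pseudocount, and for NDRG3 in RKO minus A549 DESeq2 gave -0.0016 and RLE factors -0.0019. The NDRG1 call of RKO minus H460 was lost under DESeq2 (-1.78), library size (-1.35), limma with 0.1 (-1.07) or 1 (-0.94), and an adjusted p under 0.05 (-1.75). A549 minus H460 gained a call for NDRG1 with no filter (-1.35) and for NDRG4 by library size (0.80) and limma (0.79 and 0.60). The NDRG3 normoxia difference of A549 minus H460 gained one by library size (0.59) and with no filter (0.59).

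With a replicate block the NDRG1 difference of RKO minus A549 was 0.0053, calls were gained for NDRG1 (-1.49) and NDRG4 (0.55) in A549 minus H460 and for NDRG1 in normoxia in RKO minus A549 (1.34), and the NDRG1 normoxia call of A549 minus H460 was lost (0.76). Deviations of same-numbered libraries correlated at 0.34 in RKO, 0.34 in A549 and 0.11 in H460, but no label ties numbers to a batch and each line has 2 pairs, so the fits without the block were kept.

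Without 1 replicate, the responses ranged from -0.017 to 0.12 for NDRG2 in A549 and from -0.49 to 0.0033 for NDRG4 in A549. Differences ranged from -1.05 to 0.82 for NDRG1 and -0.11 to 0.18 for NDRG3 in RKO minus A549, from -2.39 to -0.52 for NDRG1 in RKO minus H460, and in A549 minus H460 from -2.20 to -0.81 for NDRG1, -0.11 to 0.056 for NDRG2 and 0.31 to 0.80 for NDRG4. Normoxia differences ranged from -0.64 to 1.23 for NDRG1 and -0.66 to -0.17 for NDRG4 in RKO minus A549, from 0.65 to 2.53 for NDRG1 and -0.16 to 0.088 for NDRG4 in RKO minus H460, and from 1.09 to 1.48 for NDRG1, 0.48 to 0.65 for NDRG3 and 0.14 to 0.63 for NDRG4 in A549 minus H460. With 2 replicates a group, the NDRG3 intervals still hold shifts of 0.7 on the log2 scale in each line, and NDRG2 could not be tested in RKO at this depth.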
